A study of Mus musculus with 17 samples.

Results

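The 8 genes followed here in mouse liver act in MHC class II antigen presentation, and they are H2-Aa, H2-Ab1, H2-Eb1, H2-DMa, H2-DMb1, Cd74, Ciita, and Ctss. The members were all probes that carry 1 of these symbols in the table of log2 ratios, which gave 13 of 41174 non-control probes and 8 genes. All 13 probes passed the filter on signal that left 34664 probes of 19358 named genes for testing, and none was saturated on any array. Livers came from 17 male mice, labelled as C57BL/6N and named C57BL/6J in the methods, with 1 array per mouse. The chow group (n = 4) received chow for 3 months and a maltose gavage, the 1B group (n = 4) chow for 3 months and a gavage of 5 g/kg ethanol, the HFD group (n = 4) a high-fat diet for 3 months and maltose, and the HFD+1B group (n = 5) the high-fat diet for 3 months and 5 g/kg ethanol. Livers were taken 9 hours after the gavage. On every array liver cDNA was in Cy5 and a common reference RNA in Cy3, so that all levels below are log2 ratios of liver over reference, and a value of 1 probe is not comparable with that of another probe.

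MHC class II molecules present peptides from endosomes to CD4 T cells, and they are found mainly on dendritic cells, macrophages, and B cells. H2-Aa and H2-Ab1 encode the alpha and beta chains of I-A, and H2-Eb1 encodes the beta chain of I-E, whose alpha chain is not made in C57BL/6 mice. Cd74 encodes the invariant chain, which fills the peptide groove until cathepsin S, the product of Ctss, degrades it. H2-DMa and H2-DMb1 encode the chains of H2-DM, which exchanges the remaining fragment for peptide, and Ciita encodes the transactivator that is recruited to class II promoters. The liver holds these genes' RNA mostly in its nonparenchymal cells, and in bulk liver fewer cells of a type and less RNA per cell cannot be told apart.

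The probes that stand for a gene matter for H2-Ab1 and H2-Eb1, and their sequences are shown for that reason. H2-Ab1 had 4 probes, of which a pair overlaps by 31 bases with 29 identical. Counted from the 5′ end of A_51_P215242, the pair differs by T5A and T20A, shown in capitals.
A_51_P215242: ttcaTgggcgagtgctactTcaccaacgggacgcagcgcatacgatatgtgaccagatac
A_52_P570717: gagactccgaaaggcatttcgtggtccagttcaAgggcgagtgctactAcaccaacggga
Over the 17 arrays this pair had r = 0.99, and the 6 pairs of H2-Ab1 probes had r between 0.95 and 0.99. The 2 probes of H2-Aa had r = 0.97, and the 2 probes of H2-DMb1 had r = 0.94. H2-Eb1 had a single probe, which the table names H2-Eb1 but describes as an I-A beta mRNA of the NOD strain.
A_51_P393226: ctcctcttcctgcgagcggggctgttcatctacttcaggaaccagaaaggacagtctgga
The longest run of bases that this probe shares with any H2-Ab1 probe is 8, and its gene is uncertain wherever its values are given. For every other gene the probe that was brightest in Cy5 stands for the gene.

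Promoter sequence was shown because several members varied together from mouse to mouse. Class II promoters are known for an X box, bound by RFX, an X2 box, bound by CREB, and a Y box, bound by NF-Y, and Ciita protein acts through these factors. RefSeq windows of GRCm38.p6, from 250 bases before to 50 bases after the start, were matched for 5 of the 8 genes (6 windows among 32851), and not for H2-Ab1, Cd74, and Ciita. The 120 bases before the start are printed for 3 genes, on the strand of the gene, with matches in capitals.
H2-Aa (chr17:34287824-34287943, minus strand): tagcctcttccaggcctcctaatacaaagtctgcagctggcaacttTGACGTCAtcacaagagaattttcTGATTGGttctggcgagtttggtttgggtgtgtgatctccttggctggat
H2-Eb1 (chr17:34305747-34305866, plus strand): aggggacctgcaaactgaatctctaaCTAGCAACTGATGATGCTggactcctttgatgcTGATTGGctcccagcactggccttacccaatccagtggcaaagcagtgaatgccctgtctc
H2-DMb1 (chr17:34153071-34153190, plus strand): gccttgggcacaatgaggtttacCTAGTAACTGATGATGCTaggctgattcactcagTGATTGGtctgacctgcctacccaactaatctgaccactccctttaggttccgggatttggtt
The letters were chosen after these promoters had been read and were searched on both strands. The longest stretch that H2-Eb1 and H2-DMb1 share before their starts with at most 1 differing base is CTAGNAACTGATGATGCT (18 bases), which begins with letters like those known for the X box and was found in 2 of all windows (0.00609%), those of H2-Eb1 and H2-DMb1 themselves. Y box letters TGATTGG were found in H2-Aa, H2-Eb1, and H2-DMb1, and in 7.82% of windows. X2 letters TGACGTCA were found in H2-Aa alone of the matched members, and in 1.79% of windows. The Ctss and H2-DMa windows held none of these letters. The Y box letters lie 16 bases after the X2 letters in H2-Aa, and 15 and 16 bases after the shared stretch in H2-Eb1 and H2-DMb1. A match is a description of these letters and was not tied to binding.

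In mice given ethanol, 3 of the 8 genes (H2-Aa, Cd74, and Ctss) were higher on the high-fat diet than on chow, where 5.29% of all probes were higher at the same threshold. In mice given maltose, 0 of the 8 passed, where 9.89% of probes did in either direction. All 8 were higher on the high-fat diet there, with a median log2 difference of 0.76. The interaction of diet and ethanol passed for 0 of the 8, where 4.02% of probes did. Averaged over both gavages, a contrast added after the values had been seen, 5 of the 8 were higher on the high-fat diet, where 7.48% of probes were. For ethanol averaged over both diets, added likewise, 0 of the 8 passed, where 13.3% of probes did, and with the array slide as a block H2-DMb1 was lower. The HFD+1B mice had the widest spread of the 4 groups for 6 of the 8 genes, all but H2-DMa and Ciita. The mean of H2-Aa, H2-Ab1, H2-Eb1, and Cd74 was −0.70 ± 0.34 in chow (SD, n = 4), −1.04 ± 0.43 in 1B (SD, n = 4), 0.10 ± 0.40 in HFD (SD, n = 4), and 0.13 ± 0.98 in HFD+1B (SD, n = 5). In HFD+1B it was −0.98 and −0.68 in mice 1 and 3, 0.11 in mouse 5, and 0.87 and 1.31 in mice 2 and 4. Mice 1 and 3 thus lay within the range of the chow group or just below it, and mice 2 and 4 lay above every HFD mouse. HFD and chow overlapped on this mean, since chow mouse 2, at −0.22, lay above HFD mouse 3, at −0.27.

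**Figure D1:**
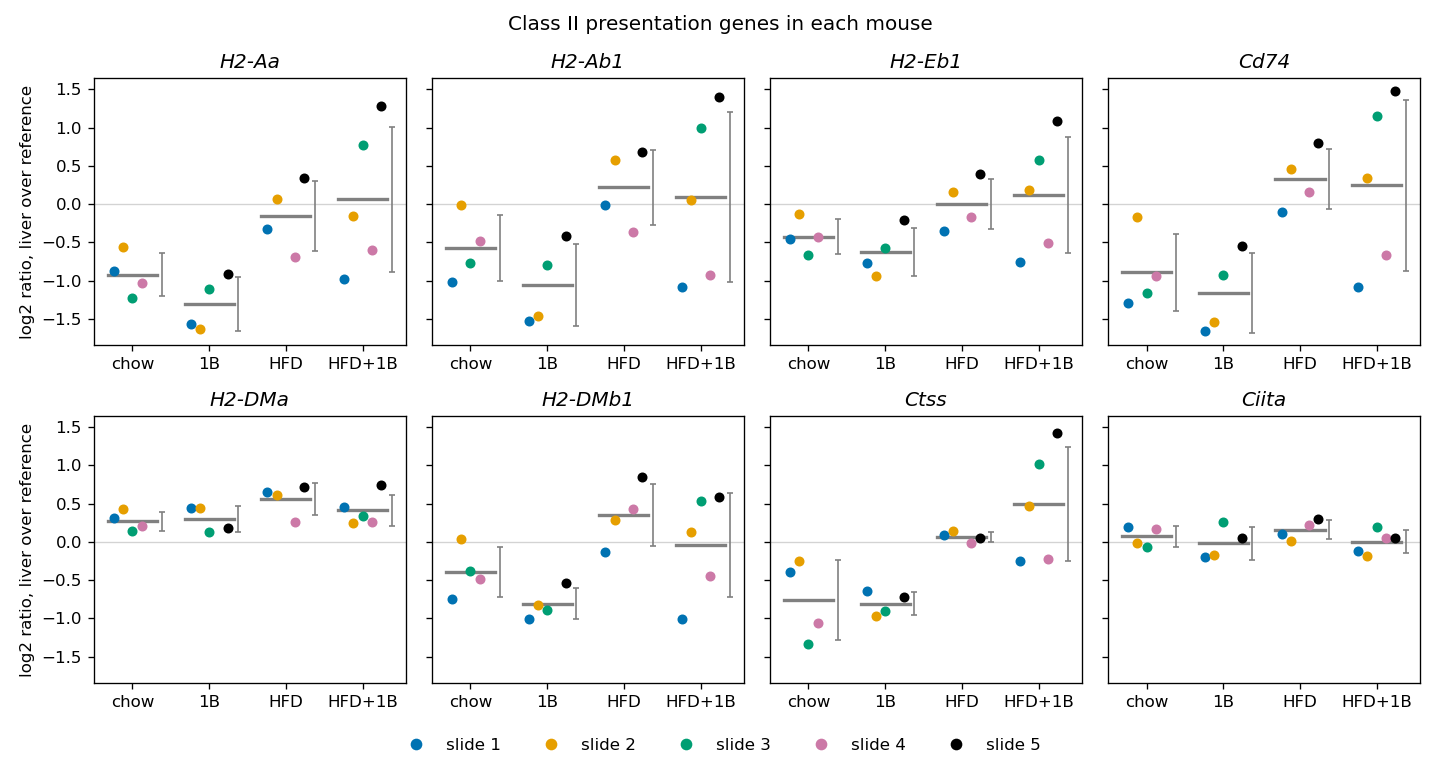
Log2 ratio of liver over reference for each of the 8 genes (1 probe per gene) in each mouse, by group. Points are mice, colored by array slide, the grey line is the group mean, and the bar beside it 1 SD (n = 4, 4, 4, and 5); H2-Aa, H2-Ab1, H2-Eb1, Cd74, and Ctss spread widely in HFD+1B, whereas H2-DMa and Ciita varied little.

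H2-Aa was −0.87, −0.57, −1.23, and −1.03 in chow mice 1 to 4 and −1.57, −1.64, −1.11, and −0.92 in the 1B mice. In HFD it was −0.33, 0.06, −0.70, and 0.34, and the HFD+1B mice were at −0.98, 0.77, −0.61, 1.28, and −0.16. HFD mouse 3 lay below the highest chow mouse, and 4 of 5 HFD+1B mice lay above every 1B mouse. H2-Ab1, the partner chain of H2-Aa in I-A, was −1.02, −0.02, −0.78, and −0.48 in chow and −1.53, −1.47, −0.80, and −0.42 in 1B. In HFD it was −0.01, 0.57, −0.36, and 0.67, and the HFD+1B mice were at −1.08, 0.99, −0.93, 1.40, and 0.05. The mice that were high or low for H2-Aa in HFD+1B were so for H2-Ab1.

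Cd74, the invariant chain, was −1.29, −0.17, −1.17, and −0.94 in chow and −1.65, −1.54, −0.92, and −0.55 in 1B. In HFD it was −0.10, 0.46, 0.15, and 0.79, and the HFD+1B mice were at −1.08, 1.15, −0.67, 1.48, and 0.35. Every HFD mouse lay above every chow mouse (as for 8.51% of probes), whereas HFD+1B overlapped both chow and 1B. Ctss, which encodes the protease of the invariant chain, was −0.40, −0.25, −1.34, and −1.06 in chow and −0.64, −0.97, −0.91, and −0.72 in 1B. In HFD it was 0.09, 0.14, −0.02, and 0.05, and the HFD+1B mice were at −0.25, 1.02, −0.22, 1.43, and 0.47. Every HFD mouse (as for 8.65% of probes) and every HFD+1B mouse (as for 4.95%) lay above every 1B mouse. The 4 HFD mice spanned the narrowest range of the 4 groups. For Cd74, H2-Aa, H2-Ab1, and H2-DMb1 every HFD mouse also lay above every 1B mouse, but not for H2-Eb1, H2-DMa, and Ciita.

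The H2-DM chains differed from each other. H2-DMb1 was −0.74, 0.04, −0.38, and −0.48 in chow, and in 1B it was −1.01, −0.82, −0.89, and −0.53. In HFD it was −0.14, 0.29, 0.43, and 0.84, and the HFD+1B mice were at −1.01, 0.54, −0.45, 0.59, and 0.13. H2-DMa ranged from 0.15 to 0.42 in chow, from 0.13 to 0.45 in 1B, from 0.26 to 0.71 in HFD, and from 0.25 to 0.74 in HFD+1B, so that all groups overlapped. H2-Eb1, with the probe of uncertain gene, ranged from −0.67 to −0.13 in chow, from −0.94 to −0.21 in 1B, from −0.35 to 0.39 in HFD, and from −0.76 to 1.08 in HFD+1B. Ciita, the transactivator, ranged only from −0.20 to 0.29 over all 17 mice, with group means of 0.07, −0.02, 0.16, and −0.00066 for chow, 1B, HFD, and HFD+1B in turn. Its Cy5 signal was low (mean 67.5), although it was well above background on all 17 arrays.

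HFD feeding without ethanol was compared with chow to see the diet alone. All 8 members were higher in HFD, with a median log2 difference of 0.76 against 0.00 over all probes, but 0 of 8 passed an adjusted p of 0.05 (limma, Benjamini-Hochberg over 34664 probes), where 9.89% of all probes did. At an unadjusted p of 0.05, 4 members passed (H2-DMa, H2-DMb1, Cd74, and Ctss), where 25.7% of all probes did. The differences were 1.22 for Cd74 (SE 0.45, adjusted p = 0.0945) and 0.83 for Ctss (SE 0.30, adjusted p = 0.0929). For Cd74 and Ctss all 4 HFD mice lay above all 4 chow mice, which 8.51% of probes did. Within the 3 slides that held both groups, Cd74 was higher in HFD by 0.62 to 1.19 and Ctss by 0.39 to 1.04. With the slide as a block, Cd74 (1.09, adjusted p = 0.0435) and H2-DMb1 (0.67, adjusted p = 0.0440) passed, 2 of 8 members, where 10.7% of probes did.

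**Figure D2:**
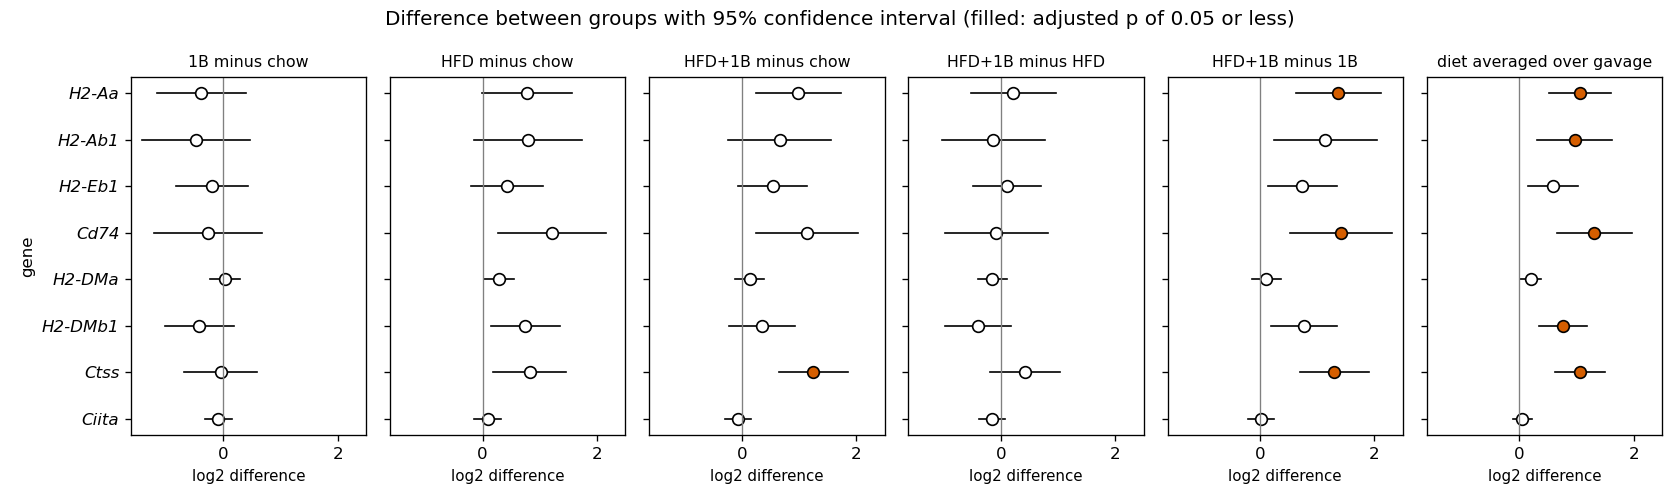
Log2 difference (x axis) of each gene (y axis) in 5 pairs of groups and for diet averaged over gavage, with 95% confidence intervals from limma. Filled points have an adjusted p of 0.05 or less; they are Ctss in HFD+1B minus chow, H2-Aa, Cd74, and Ctss in HFD+1B minus 1B, and 5 genes for diet averaged over gavage.

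The diet was compared under ethanol by HFD+1B minus 1B, in which both groups had the binge. H2-Aa, Cd74, and Ctss were higher in HFD+1B, 3 of 8 members, where 9.98% of all probes passed in either direction and 5.29% were higher. H2-Aa differed by 1.37 (SE 0.35, 2.58-fold, adjusted p = 0.0187). Cd74 differed by 1.41 (SE 0.43, 2.66-fold, adjusted p = 0.0424), and Ctss by 1.30 (SE 0.29, 2.46-fold, adjusted p = 0.00754). All 8 differences were positive with a median of 0.96, against −0.01 over all probes, and for Ctss all 5 HFD+1B mice lay above all 1B mice, which 4.95% of probes did. The other differences were 1.14 for H2-Ab1 (adjusted p = 0.108), 0.74 for H2-Eb1 (adjusted p = 0.121), 0.77 for H2-DMb1 (adjusted p = 0.0883), 0.11 for H2-DMa (adjusted p = 0.689), and 0.02 for Ciita (adjusted p = 0.962). The second H2-Aa probe gave an adjusted p of 0.0573. The call was kept under 30 of 30 other settings for Ctss, 26 for H2-Aa, and 16 for Cd74. That of Cd74 was lost in 9 of the 17 omissions of a single mouse (adjusted p of up to 0.131), among them mice of groups outside the comparison, and with the authors' table and with no filter on signal (adjusted p = 0.0620 in both). The number of members called depended on single mice, since 1 member passed without 1B mouse 1 or without 1B mouse 2 (Ctss both times), and 6 passed without HFD+1B mouse 1. Within the 4 slides that held both groups, H2-Aa was higher in HFD+1B by 0.59 to 2.20, H2-Ab1 by 0.45 to 1.82, Cd74 by 0.57 to 2.08, and Ctss by 0.39 to 2.14. With the slide as a block, 6 members passed, all but H2-DMa and Ciita, where 12% of probes did.

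Against chow, HFD+1B livers had higher Ctss (1.25, SE 0.29, 2.38-fold, adjusted p = 0.00603), which was the 1 member of 8 that passed, where 14.8% of all probes did. Cd74 differed by 1.14 (adjusted p = 0.0849) and H2-Aa by 0.99 (adjusted p = 0.0719), and both passed when HFD+1B mouse 1 or mouse 3 was left out, each of which gave 3 members. Ciita differed by −0.07 (95% interval −0.30 to 0.16). With the slide as a block Cd74 also passed (0.94, adjusted p = 0.0429), which made 2 of 8 members, where 16.1% of probes did. HFD+1B minus chow, HFD minus chow, and 1B minus chow share the 4 chow mice, and their values are to be read side by side and not as separate evidence.

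The binge was compared with maltose within each diet, and no member passed. In chow-fed mice 7 of 8 members were lower in 1B, with a median of −0.24, but 0 passed in limma, where 3.63% of all probes did, and 0 had an unadjusted p of 0.05 or less, where 13.7% did. With the slide as a block the median was −0.51, and 3 members had an unadjusted p of 0.05 or less, where 15.9% of probes did. These were H2-Aa (−0.70, adjusted p = 0.229), H2-Ab1 (−0.83, adjusted p = 0.194), and H2-DMb1 (−0.59, adjusted p = 0.133) in limma, and 0 passed after adjustment. Within the 3 slides that held both groups, H2-Ab1 and H2-DMb1 were lower in 1B on 3 of 3 and H2-Aa on 2 of 3. In HFD-fed mice 3 of 8 were higher in HFD+1B, with a median of −0.11, and 0 passed, where 17.9% of all probes did. Again 0 had an unadjusted p of 0.05 or less, where 31.6% of probes did. Under the slide block H2-DMb1 alone had one (−0.44, adjusted p = 0.109 in limma), where 33.3% of probes did, and it was lower in HFD+1B on 4 of 4 slides, by 0.16 to 0.88. The intervals were wide for the class II chains. That of H2-Ab1 in HFD+1B minus HFD ran from −1.03 to 0.77 and that of Cd74 from −0.98 to 0.82, so that both directions were within them. For H2-DMa the interval was −0.40 to 0.11 and for Ciita −0.39 to 0.07. The value of Ciita moved with the processing, from −0.16 here to −0.59 in the authors' table, where HFD minus chow was 0.48 (0.09 here) and the interaction −0.57 (−0.07 here). The interaction of diet and ethanol passed for 0 of 8 members, where 4.02% of all probes did, 0 had an unadjusted p of 0.05 or less (19.8% of probes), and the largest value was 0.60 for H2-Aa (95% interval −0.48 to 1.68). Under the slide block, H2-Aa alone had an unadjusted p of 0.05 or less for the interaction (0.87, adjusted p = 0.188 in limma), where 23.8% of probes did.

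Since no interaction passed, the diet difference was also averaged over both gavages, a contrast that was added after the values had been seen and that holds the same mice as above. Higher in the 9 mice on the high-fat diet than in the 8 on chow were 5 of 8 members (H2-Aa, H2-Ab1, H2-DMb1, Cd74, and Ctss), where 14.7% of all probes passed in either direction and 7.48% were higher. The differences were 1.07 for H2-Aa (SE 0.26, adjusted p = 0.00885), 0.97 for H2-Ab1 (SE 0.31, adjusted p = 0.0441), 0.76 for H2-DMb1 (SE 0.20, adjusted p = 0.0149), 1.32 for Cd74 (SE 0.31, adjusted p = 0.00780), and 1.06 for Ctss (SE 0.21, adjusted p = 0.00233). H2-Aa and Ctss passed under 28 of 28 other settings. H2-Ab1 lost its call in 12 of the 17 omissions of a single mouse, with adjusted p-values of up to 0.0879, and 2 of its 4 probes missed the threshold (adjusted p = 0.0604 and 0.0530). H2-Eb1 (0.59, adjusted p = 0.0681), H2-DMa (0.20, adjusted p = 0.144), and Ciita (0.05, 95% interval −0.12 to 0.22) did not pass. For Ciita this difference was 0.02 to 0.19 over the 28 other settings. Its Cy5 signal was low, and its interval cannot be compared with the differences of brighter probes. H2-Eb1 passed too with the slide as a block (0.56, adjusted p = 0.0251), which made 6 members, where 14.9% of probes did. Averaged over both diets, the ethanol difference passed for 0 of 8 members, where 13.3% of all probes passed, 0 had an unadjusted p of 0.05 or less (25.8% of probes), and it was −0.41 for H2-DMb1 (95% interval −0.83 to 0.01). The slide block gave a lower H2-DMb1 (−0.51, adjusted p = 0.0215), 1 of 8 members, where 13.3% of probes passed, and H2-Ab1 was at −0.52 (adjusted p = 0.138).

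The class II chains, Cd74, and H2-DMb1 varied together from mouse to mouse. Over the 17 arrays, H2-Aa, H2-Ab1, H2-Eb1, H2-DMb1, and Cd74 had r between 0.85 and 0.97 for the 10 pairs, and between 0.82 and 0.97 after the group means were removed. Ctss had r of 0.72 to 0.91 with these 5 genes, H2-DMa 0.45 to 0.55, and Ciita 0.34 to 0.39. The points of these correlations share their array and slide, and they are given as a description. The spread among mice of a group (residual SD) was 0.46 to 0.74 for H2-Aa, H2-Ab1, H2-Eb1, H2-DMb1, Cd74, and Ctss, against a median of 0.19 over all probes tested. It was 0.18 for H2-DMa and 0.16 for Ciita.

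**Figure D3:**
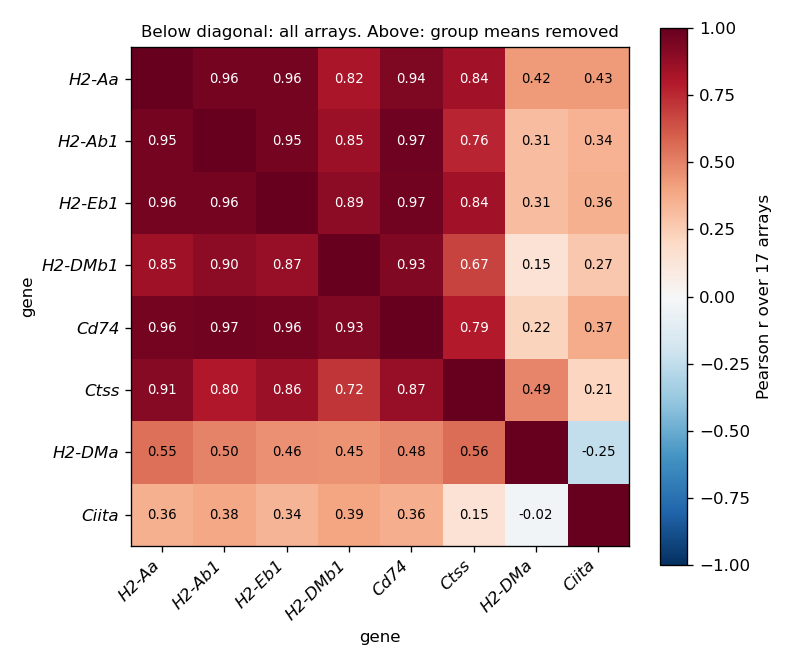
Pearson r between the log2 ratios of each pair of the 8 genes over 17 arrays. Below the diagonal r is over all arrays, and above it after the mean of each group was removed; the block of H2-Aa, H2-Ab1, H2-Eb1, H2-DMb1, and Cd74 has r of 0.82 or more throughout, and Ciita and H2-DMa stand apart from it.

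This shared variation moved with the array slide. On slides 1 and 4 all arrays (4 of 4 and 3 of 3) lay below their group means for the mean of H2-Aa, H2-Ab1, H2-Eb1, and Cd74, and on slide 5 all 3 lay above, whereas slides 2 and 3 had 2 arrays above each. HFD+1B mice 1 and 3, which were low, were on slides 1 and 4, and mouse 4, which was high, was on slide 5. Each slide held 1 mouse of 3 or 4 groups. Slide 3 held no HFD mouse, slide 4 no 1B mouse, and slide 5 no chow mouse. HFD+1B alone had a mouse on every slide, so that groups were not balanced over slides. With the slide as a block, the median difference of the members moved from 0.60 to 0.42 for HFD+1B minus chow. It moved from 0.76 to 0.65 for HFD minus chow and from −0.24 to −0.51 for 1B minus chow. For HFD+1B minus 1B it moved from 0.96 to 1.06. Whether slide or mouse carries the variation was not tested, and within a slide and group the 2 cannot be told apart. For diet averaged over gavage, 5 members passed without the arrays of slide 1 and 4 without those of slide 5, and for HFD+1B minus 1B, 4 and 2 passed.

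**Figure D4:**
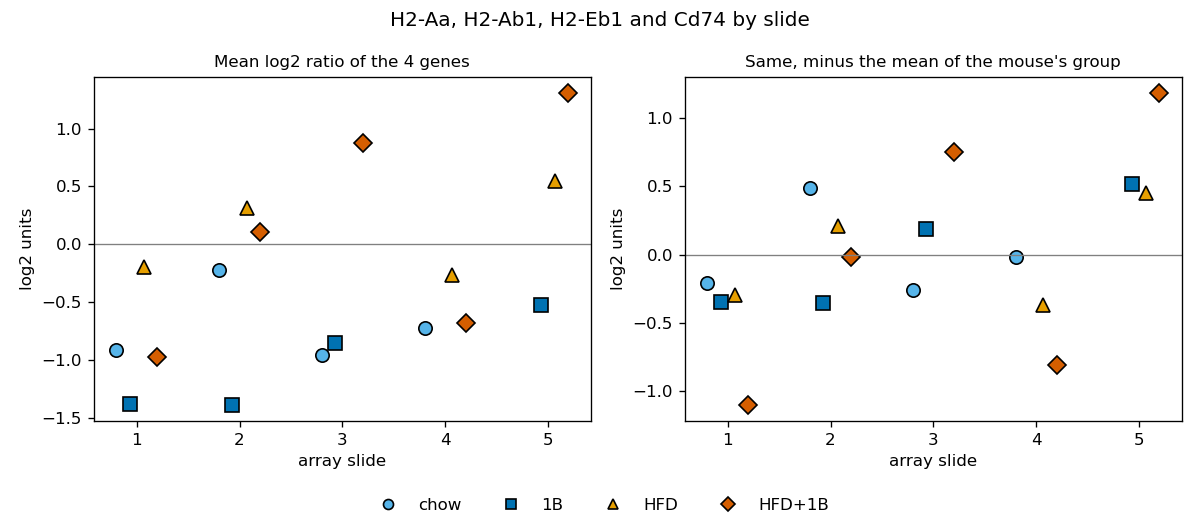
Mean log2 ratio of H2-Aa, H2-Ab1, H2-Eb1, and Cd74 in each mouse against the array slide (left), and the same after the mean of the mouse's group was subtracted (right). Symbols mark the group; on slides 1 and 4 every array lies below its group mean, and on slide 5 all 3 lie above.

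Among the 10 genes most like the mean of H2-Aa, H2-Ab1, H2-Eb1, and Cd74, of 15347 other genes measured on all 17 arrays, were C1qb (r = 0.93), Tyrobp, C1qa, Ly6a, C1qc, Pf4, Sh3bgrl3, and Tgfb1 (r = 0.91). C1qa, C1qb, and C1qc encode the chains of complement C1q, and Tyrobp encodes an adaptor of myeloid receptors. With the group means removed, r was 0.92 for C1qb and 0.85 for Tgfb1. C1qb had group means of −0.71, −0.72, 0.18, and 0.15 in chow, 1B, HFD, and HFD+1B.

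Markers of other cells moved with the class II genes to different extents. Over the 17 arrays, the mean of the pan-leukocyte markers had r = 0.83 with the mean of the 4 class II genes, macrophage and Kupffer cell markers 0.71, and monocyte markers 0.68. B-cell markers had r = −0.45, dendritic-cell markers −0.23, T-cell markers 0.03, neutrophil markers −0.04, sinusoidal endothelial markers 0.28, and hepatocyte markers −0.11. With the group means removed, r was 0.80 for pan-leukocyte, 0.40 for macrophage, 0.49 for monocyte, −0.56 for B-cell, −0.01 for dendritic-cell, −0.16 for T-cell, −0.48 for neutrophil, 0.03 for sinusoidal endothelial, and −0.57 for hepatocyte markers. For diet averaged over gavage, 14.7% of all probes passed in either direction and 7.48% were higher. Of 7 macrophage markers 2 were higher, Cd68 (1.40, adjusted p = 6.04e-06), a lysosomal protein of macrophages, and Emr1 (0.59, adjusted p = 0.00472), which encodes F4/80. Clec4f, Cd5l, Marco, Vsig4, and Csf1r did not pass, and Timd4 was well above background on 2 of 17 arrays. Of 5 pan-leukocyte markers Coro1a (0.37, adjusted p = 0.0104) and Laptm5 (0.67, adjusted p = 0.0460) were higher, and Cd52, Cd53, and Ptprc did not pass. Of 5 monocyte markers Cd14 (2.31, adjusted p = 0.000274), Fcgr1, and Ly6c2 were higher, and Ccr2 and Cx3cr1 did not pass. Of 7 B-cell markers 0 passed in limma, and 1 had an unadjusted p of 0.05 or less. Of 7 dendritic-cell markers Flt3 was lower, and none was higher. Of 7 sinusoidal endothelial markers 2 were higher, Lyve1 and Stab2. Cd3g was higher of 5 T-cell markers and S100a8 of 7 neutrophil markers, and 0 of 7 hepatocyte markers passed. In HFD minus chow, Ly6c2 alone of the monocyte markers passed, where 9.89% of all probes did. Cd14 was higher in HFD+1B than in chow, HFD, and 1B, and for ethanol averaged over diet. The summed Cy5 signal of the macrophage markers ranged over 4263 to 6268.5 (chow), 3162 to 5274.5 (1B), 2378.5 to 6428 (HFD), and 4180.5 to 10318.5 (HFD+1B). For the monocyte markers the ranges were 554 to 1141.5, 451 to 856.5, 507.5 to 1078, and 1312 to 9164. These sums were not normalized between arrays. Cd14 was the brightest of the 5 monocyte markers (mean Cy5 above background 854, then Ly6c2 at 472). In HFD+1B minus HFD, 2 of these 5 markers had a positive difference, Cd14 alone passed, and the median was −0.02. The part of these cells in the class II differences was not tested.

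A list for class II peptide processing and turnover, which is not of enzymes alone, had 10 tested genes. For diet averaged over gavage, 7 of them were higher (Cst3, Ctsb, Ctsc, Ctsd, Ctsz, Ifi30, and Lgmn), where 7.48% of all probes were. None was lower, and the median was 0.45. Ctsh, Ctsl, and Sppl2a did not pass. Lgmn, which encodes legumain, an endopeptidase of endosomes, differed by 1.09 (SE 0.13, adjusted p = 3.74e-05). Ifi30, which encodes a thiol reductase that is induced by interferon gamma, differed by 0.70 (SE 0.12, adjusted p = 0.000634). In HFD minus chow, 5 of 10 passed (Cst3, Ctsd, Ctsz, Ifi30, and Lgmn), where 9.89% of all probes did, with 0.85 for Lgmn (adjusted p = 0.00875). Some passed for ethanol, and Ctsl was higher (0.75, adjusted p = 0.0163) and Ctsc lower (−0.67, adjusted p = 0.0394) in 1B minus chow. Of all probes 3.63% passed there. In HFD+1B minus HFD, Ctsl, Ifi30, and Lgmn were higher and Ctsc and Ctsh lower, where 17.9% of all probes passed.

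Among 18 genes for factors that act on class II promoters or upstream of them, 0 passed in HFD minus chow in limma. Of all probes 9.89% did. At an unadjusted p of 0.05, 5 of the 18 passed, where 25.7% of probes did. For diet averaged over gavage 4 were higher, where 7.48% of probes were. These were Ifngr1 (0.64, adjusted p = 0.00146), a chain of the interferon gamma receptor, Rfxank (0.45, adjusted p = 0.00700), a subunit of RFX, Spi1 (0.42, adjusted p = 0.00897), which encodes PU.1, and Irf8. Spi1 rests on low signal (mean Cy5 above background 36.0, against 47.2 for Ciita), and it was well above background on 16 arrays of 17. In HFD+1B minus chow, 5 of 18 were higher (Ifngr1, Jak1, Rfxank, Socs1, and Spi1), where 14.8% of all probes passed. Rfxank differed by 0.92 (adjusted p = 0.000220). In HFD+1B minus HFD, 5 were higher (Ifngr1, Jak1, Nfya, Rfxank, and Rfxap), where 17.9% of all probes passed. In HFD+1B minus 1B, 6 were higher (Ifngr1, Nfya, Nfyb, Rfxank, Socs1, and Spi1), where 5.29% of probes were. Jak1 and Rfxank were higher for ethanol averaged over diet (13.3% of probes passed), and Nfya and Nfyb for the interaction (4.02%). In 1B minus chow 0 passed (3.63% of probes). None was lower in any of the 8 comparisons. Class I presentation shows peptides of the cytosol. For diet averaged over gavage 3 of its 13 genes were higher (H2-K1, Psmb9, and Tap1) and 3 lower (Erap1, Pdia3, and Tap2). Their median was 0.00. Of all probes 14.7% passed in either direction, and 7.48% were higher. Tap1, a chain of the peptide transporter, differed by 0.71 (adjusted p = 0.00260). Of 5 costimulation genes 0 passed in limma in any of the 8 comparisons, and 0 had an unadjusted p of 0.05 or less. Of all probes, from 3.63% (1B minus chow) to 17.9% (HFD+1B minus HFD) passed. At an unadjusted p of 0.05, 13.7% and 31.6% did in these 2 comparisons. Of the other class II loci 3 were tested, and H2-Eb2 alone passed. It was lower in HFD than chow (−0.50, adjusted p = 0.0124) and higher in HFD+1B than HFD (0.43, adjusted p = 0.0115). Of all probes 9.89% and 17.9% passed in these comparisons in turn. The pseudogene H2-Ea-ps was well above background on 1 of 17 arrays and H2-Ob on 2.

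Signal differed between arrays. For chow, 1B, HFD, and HFD+1B in turn, array medians in Cy5 spanned 98.0 to 136.5, 68.5 to 133, 62.5 to 96.0, and 88.0 to 156. The summed Cy5 signal of the 8 genes spanned 2163 to 7413.5 across HFD mice and 4571 to 22940 across HFD+1B mice. Probes for ribosomal RNA (n = 5) averaged 0.43, −0.37, −3.03, and 0.17 for the groups in the same order, and this mean had r = −0.17 with the mean of the 4 class II genes over 17 arrays. The HFD arrays ranged from −3.80 to −2.15, below every array of the other groups (lowest −1.17, in 1B). The part of this HFD difference in the comparisons that hold HFD was not tested, and the r over all groups does not address it.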

How the data were processed

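RNA of 17 mouse livers was hybridized to Agilent arrays of 2 colors, spread over 5 slides. The deposited scanner files hold intensity values of both channels from Feature Extraction 11.5.1.1, as the file headers give. The authors' table holds log2 ratios of processed red over green signal (recomputed from the scanner files, largest difference 2.74e-06 over 40901 probes), and 0 of its value columns were left over. Here intensities were corrected by normexp (offset 50), outlier spots and controls were left out, ratios were normalized by loess for each array, and replicate spots averaged. Probes well above background in Cy5 on at least 4 of 17 arrays were tested (34664 of 41174). Group means were fitted by limma 3.58.1 in R 4.3.3 (lmFit, eBayes), with Benjamini-Hochberg adjustment and a threshold of 0.05. Analysis of variance with the Tukey test, and other settings, were run as alternatives. The methods give this test for data of multiple groups in general. For the arrays the paper states a fold of at least 2. The fit was tested on simulated data. The arrays limit precision by their number. With 1 array per mouse and no slide term in the main fit, p-values measure the spread of mouse, array, and slide together. The dye orientation was the same on all arrays. The members and gene lists were chosen with earlier results of these data known, and all 8 members were named. Some of the genes most like the class II mean are not reported here. Of 24 same-numbered pairs of mice, 16 had correlated deviations over 0.1 (range −0.13 to 0.48), and 14 shared a slide, so that the numbers were not taken to pair the mice. Array annotation is of an older build than RefSeq GRCm38.p6, which was used for promoters alone.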

Additional observations from a re-analysis of the deposited data

How the results depend on the processing

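The counts of members called were recomputed under no background subtraction, the authors' table, median centring, Cy5 alone, other filters, outlier spots kept, gene means, other call rules, the groups compared alone, blocks, and without each mouse. For the interaction, for HFD+1B minus HFD, and for 1B minus chow the count was 0 throughout. For HFD minus chow it was 1 by fold and unadjusted p, 4 from the groups compared alone, 2 with the slide as a block, and 0 to 1 without single mice. For HFD+1B minus 1B it was 1 with Cy5 alone, 1 from the groups compared alone, 6 with the slide as a block, and 1 to 6 without single mice. For HFD+1B minus chow it was 0 with Cy5 alone, 2 by fold and unadjusted p, 2 with the slide as a block, 2 without the arrays of slide 1 (an omission added after seeing the data), and 1 to 3 without single mice. For diet averaged over gavage, it was 3 with Cy5 alone, 3 by fold and unadjusted p, 6 with the slide as a block (H2-Eb1 added), and 4 to 6 without single mice, and for ethanol averaged over diet it was 1 with the slide as a block (H2-DMb1, lower). With the replicate block the count was 2 for HFD minus chow, 5 for HFD+1B minus 1B, and 3 for HFD+1B minus chow; these numbers do not pair the mice. The cause of these shifts was not tested.

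No called difference changed sign under any setting. Of the uncalled ones, none over 0.22 in size, 53 values did, 37 of them without single mice. In HFD+1B minus HFD these were 0.16 (median centring) and 0.047 (Cy5 alone) for Cd74, with −0.39 to 0.25 without single mice, 0.12 and 0.059 for H2-Ab1 (−0.46 to 0.16), −0.019 (Cy5 alone) for H2-Aa (−0.088 to 0.48), −0.13 to 0.33 for H2-Eb1, and 0.13 (median centring) for H2-DMa. In 1B minus chow they were −0.0055 (authors' table), −0.14 (Cy5 alone), and −0.051 (slide block) for H2-DMa (−0.020 to 0.087), and −0.24 to 0.12 for Ctss. For Ciita in HFD+1B minus 1B they were −0.090 (authors' table) and −0.010 (Cy5 alone), with −0.044 to 0.11. For the interaction they were 0.13 (median centring) for H2-DMa, −0.020 (replicate block) for H2-DMb1 (−0.14 to 0.26), −0.11 to 0.53 for Cd74, and −0.13 to 0.022 for Ciita. For ethanol averaged over diet they were 0.036, 0.065, and 0.072 (median centring) for H2-Aa (−0.24 to 0.046), H2-DMa, and H2-Eb1 (−0.17 to 0.064).

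Simulated 2-fold changes were called for 90 of 100 probes in HFD+1B minus chow and 65 of 100 for the interaction, among probes drawn from all. The simulated noise was drawn separately for each probe and array, with no slide effect, so these counts do not describe the class II genes. Most class II genes varied more than the median probe, and 2-fold changes can be missed in them. Ciita rests on low signal.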
